A study of Mus musculus with 61 samples.

Results

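Gdf9 and Bmp15 encode the growth factors GDF9 and BMP15, which the oocyte secretes onto the granulosa cells around it. Both genes were chosen by symbol and are 2 of the 23927 gene rows of the table. Their counts were followed through all 61 single cells of the series, including the granulosa libraries. The cells came from ovaries of wild-type CD-1 mice, an outbred stock, at postnatal day 5. Mice had received an intraperitoneal injection of the solvent or of doxorubicin, an anti-cancer drug that damages DNA, and cells were taken 6 hours later. The dose is written as 10 with the unit mg/kb, so the amount given remains uncertain. The table held 16 control oocytes, 16 doxorubicin oocytes, 16 control granulosa cells and 13 doxorubicin granulosa cells. The labels name no animal, and each group therefore stands as 1 sample. No difference was tested, and cells describe spread and are not replicates of the treatment.

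GDF9 and BMP15 belong to the TGF-beta family of secreted signals. Each is made as a precursor that a convertase such as furin cuts, and the mature proteins act as dimers with themselves or with each other. BMP15 and GDF9 bind the type 2 receptor BMPR2 on granulosa cells. BMP15 signals with the type 1 receptor BMPR1B to SMAD1 and SMAD5, and GDF9 signals with TGFBR1 to SMAD2 and SMAD3. In mice, follicles without GDF9 stop at the primary stage, while loss of BMP15 alone has a milder effect on fertility. The ovary at this age holds mostly primordial and early growing follicles.

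Gdf9 (ENSMUSG00000018238.6) lies on the plus strand of chromosome 11 in GRCm38, at chr11:53431023-53437904. Bmp15 (ENSMUSG00000023279.7) lies on the minus strand of the X chromosome, at chrX:6314107-6320721. Both have 2 exons in their longest transcript, which is 1793 bases for Gdf9 and 3060 bases for Bmp15 in GENCODE M21, with coding parts of 1323 and 1176 bases. No other annotated gene there overlaps either of them. The nearest gene to Gdf9 is Uqcrq on the opposite strand, 192 bases away, and in RefSeq the pair shares 58 bases. The counting is not stated to use strand, so a few Uqcrq reads at that end could not be told apart from Gdf9 reads. None of the 1744 runs of 50 bases in the Gdf9 transcript and none of the 3011 in the Bmp15 transcript occurs in a transcript of another gene. The longest run of bases shared by the 2 transcripts is 12. The 250 bases before the Bmp15 start are shown because the transcription factors that act on such sequences in oocytes are followed further on. They are given 5′ to 3′ on the gene's strand, from RefSeq on GRCm38.p6 at chrX:6320725-6320974.
Bmp15: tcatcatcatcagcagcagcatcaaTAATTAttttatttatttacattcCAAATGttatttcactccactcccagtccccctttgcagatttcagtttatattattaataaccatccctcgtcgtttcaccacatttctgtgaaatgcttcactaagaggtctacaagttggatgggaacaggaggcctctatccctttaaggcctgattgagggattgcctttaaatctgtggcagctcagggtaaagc
Capitals mark TAATTA, an element bound by the oocyte factor NOBOX, and CAAATG, a match to the E-box CANNTG that FIGLA and SOHLH1 recognise. TAATTA lies 225 to 220 bases before the start and is present in 4.84% of 32851 promoters of this length. The other NOBOX element searched, TAATTG, had 0 matches here and is present in 7.17% of promoters. CAAATG lies 201 to 196 bases before the start, and 66.2% of promoters hold an E-box. Both strands were searched. The matches describe letters and do not show binding. The Gdf9 promoter is not shown.

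Total counts ran from 6834594 to 31262609 per cell, and levels are given in CPM, which scales the counts of a gene to the total of its library. The cell labels were compared with 21 oocyte markers, which leave out both growth factor genes, and 18 granulosa markers. The oocyte markers summed to more than the granulosa markers in 16 of 16 control oocytes and 16 of 16 doxorubicin oocytes. The granulosa markers summed to more than the oocyte markers in 11 of 16 control and 5 of 13 doxorubicin granulosa libraries. The granulosa group thus held many libraries rich in oocyte transcripts, and its results are given below with and without them. For doxorubicin oocyte 4 the series text says that raw reads no longer exist. Its column of counts was kept.

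Gdf9 was abundant in every oocyte, while Bmp15 was a low transcript that was missing or nearly missing from 1 oocyte of each treatment. In control oocytes the lowest Gdf9 level was 409 CPM, in cell 3, the median was 922 CPM and the highest was 1469.7 CPM, in cell 2. The middle of the group was narrow, and the coefficient of variation over the 16 cells was 27.7%. Bmp15 in the same cells ranged from 0.254 CPM, in cell 10, through a median of 33.6 CPM to 75.8 CPM, in cell 5. Its coefficient of variation was 62.4%. Control oocyte 10 stood alone at the low end with 2 Bmp15 reads, since the next lowest cell, number 3, had 5.31 CPM. That same cell had 966 CPM of Gdf9, close to the group's median.

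Counts were summed over the cells of a group to give group levels. For Gdf9 in control oocytes the group level was 964 CPM, with a 95% interval of 959.6 to 968. For Bmp15 it was 36.6 CPM (35.8 to 37.5). Intervals of levels and ratios cover counting error only, and those of shares of libraries take libraries as independent draws. The libraries carry no molecular identifiers, so copies made by PCR from 1 molecule count as separate reads. Per kilobase of the longest transcript, Gdf9 stood at 538 CPM and ranked 64 among 23355 genes with a length. Bmp15 stood at 11.97 CPM per kilobase and ranked 5281. The level of Gdf9 per kilobase was thus 44.9-fold that of Bmp15 in control oocytes, a log2 ratio of 5.49 (5.46 to 5.52). Leaving out each cell in turn gave 5.41 to 5.60. With coding length in place of transcript length the log2 ratio was 4.55.

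**Figure D1:**
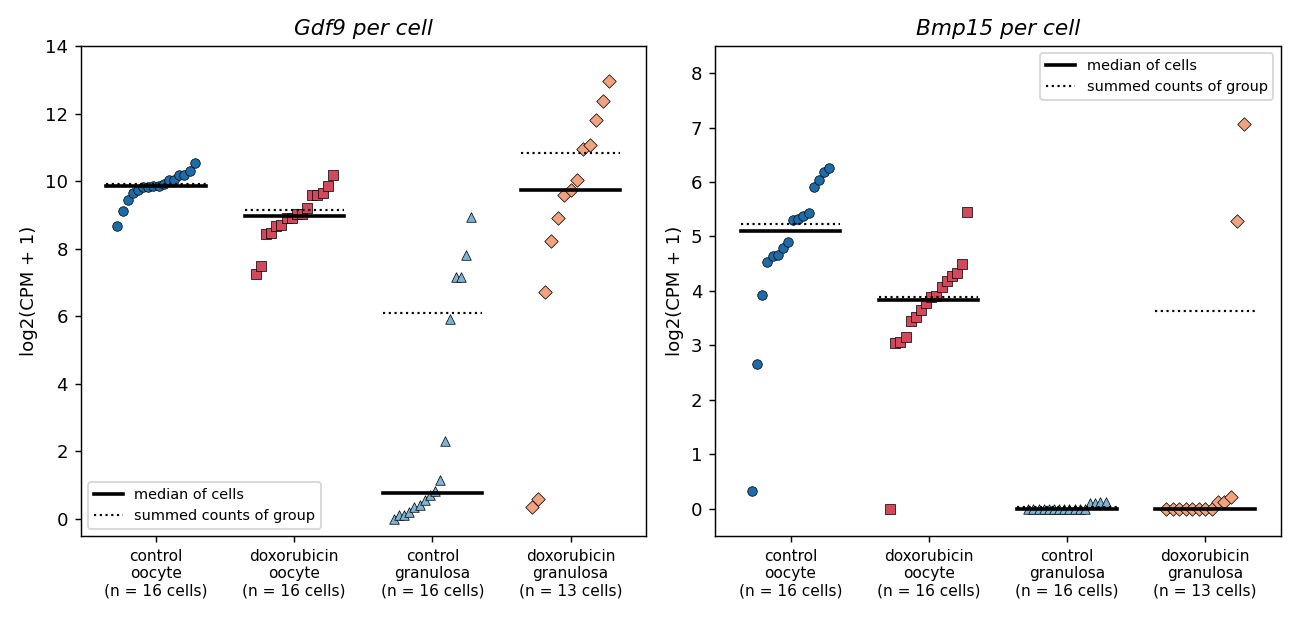
Level of Gdf9 (left) and Bmp15 (right) in each cell, as log2(CPM + 1), by cell type and treatment. Each point is 1 cell in order of its value, the thick line is the median of the cells and the dotted line the level of the summed counts. Gdf9 is present in all 32 oocytes and spread over the whole scale in granulosa libraries, where Bmp15 stands above the baseline in 2 doxorubicin libraries.

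Both transcripts were lower in doxorubicin oocytes, Bmp15 by more than Gdf9. In these cells Gdf9 ranged from 153 CPM, in cell 5, through a median of 500.4 CPM to 1172 CPM, in cell 4. The doxorubicin oocytes overlapped the control oocytes, yet 15 of 16 lay below the control median and 4 lay below the lowest control cell. Their coefficient of variation was 49.0%, wider than in controls. The group level was 564 CPM (560.2 to 567), 1.71-fold lower than in control oocytes, which is a log2 ratio of -0.77 (-0.79 to -0.76). It lay between -0.90 without doxorubicin oocyte 4 and -0.69 without doxorubicin oocyte 5.

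Bmp15 in doxorubicin oocytes ranged from 0 reads, in cell 4, through a median of 13.3 CPM to 42.5 CPM, in cell 16. Here 15 of 16 cells lay below the control median, 4 control oocytes lay above the highest doxorubicin oocyte, and 1 doxorubicin oocyte lay below the lowest control. The group level was 13.8 CPM (13.2 to 14.3), 2.66-fold lower than in controls, a log2 ratio of -1.41 (-1.48 to -1.35). It ranged from -1.59 without doxorubicin oocyte 16 to -1.30 without doxorubicin oocyte 4. A count of 0 in doxorubicin oocyte 4 allows up to 0.232 CPM of Bmp15, and that cell had the highest Gdf9 level of its group.

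Against all genes, the 2 members stood low. Among 11119 genes with at least 5 CPM in either oocyte group, 2.45% were at least 2-fold lower after doxorubicin and 6.30% at least 2-fold higher. Bmp15 was past 2-fold and Gdf9 was not. Bmp15 also stayed past 2-fold whichever cell was left out, which held for 1.21% of genes on the lower side and 4.19% on the higher side. A ratio as low as that of Bmp15 or lower was found for 0.926% of genes, and one as low as that of Gdf9 for 4.48%, around a median over all genes of 0.01. Markers of other cells differed between the oocyte groups as well. The 18 granulosa markers summed to 3.52 to 824 CPM in control oocytes, with a median of 88.2 CPM. They summed to 9.49 to 3614 CPM in doxorubicin oocytes, with a median of 39.4 CPM, and cells 9, 11 and 12 were the highest. The 7 endothelium markers summed to 0 to 34.2 CPM with a median of 3.77 CPM in control and to 0.180 to 135 CPM with a median of 28.7 CPM in doxorubicin oocytes. The 6 blood and immune markers with a row had medians of 1.85 and 7.25 CPM, and the 8 stroma markers 30.97 and 43.5 CPM. The part of these markers in the ratios of the 2 members was not tested. Among oocytes under 200 CPM of granulosa markers, 11 control and 12 doxorubicin cells, the log2 ratio was -0.68 for Gdf9 and -1.42 for Bmp15. No limit was set there on the endothelium, blood and immune or stroma markers.

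The oocyte markers were spread on both sides between oocyte groups. Their median log2 ratio was -0.07 over 20 measured genes, of which 13 were lower and 7 higher, with 0 at least 2-fold higher and 0 at least 2-fold lower. The lowest were Khdc3 at -0.63, Zp2 at -0.52, Zp1 and Zar1 at -0.48 and Nobox at -0.44, short of Gdf9 at -0.77. The sum of the 21 markers had a median of 56771 CPM over control cells and of 40355 CPM after doxorubicin, with ranges that overlapped. Control oocytes held 1.79 Gdf9 counts per 100 counts of oocyte markers, and doxorubicin oocytes held 1.27. Cell by cell this ran from 0.991 to 3.03 with a median of 1.77 in controls and from 0.316 to 2.25 with a median of 1.37 after doxorubicin, so that the cells overlapped. For each 100 Gdf9 counts there were 3.80 Bmp15 counts in control oocytes and 2.44 in doxorubicin oocytes. Per kilobase, Gdf9 exceeded Bmp15 by a log2 ratio of 6.13 (6.07 to 6.19) after doxorubicin, and leaving out each cell gave 5.89 to 6.27. The medians of the per-cell ratios, at 5.71 in control and 5.96 in doxorubicin oocytes, were closer to each other than the group values.

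The 2 transcripts did not rank the oocytes in the same order. Over 16 control oocytes Pearson's r of log2(CPM + 1) between them was 0.10 and Spearman's rho -0.22, and without cells 10 and 3, the farthest from the Bmp15 median, r was -0.45. Over 16 doxorubicin oocytes r was -0.21 and rho -0.02, and r was 0.16 without cells 4 and 16. Gdf9 followed the summed oocyte markers more closely, with r 0.59 and rho 0.67 in control and r 0.50 and rho 0.72 in doxorubicin oocytes. That r was 0.445 without control oocytes 3 and 10 and 0.442 without doxorubicin oocytes 4 and 11. These values describe cells that share a library total within each point, and cells of 1 group may share an animal.

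**Figure D2:**
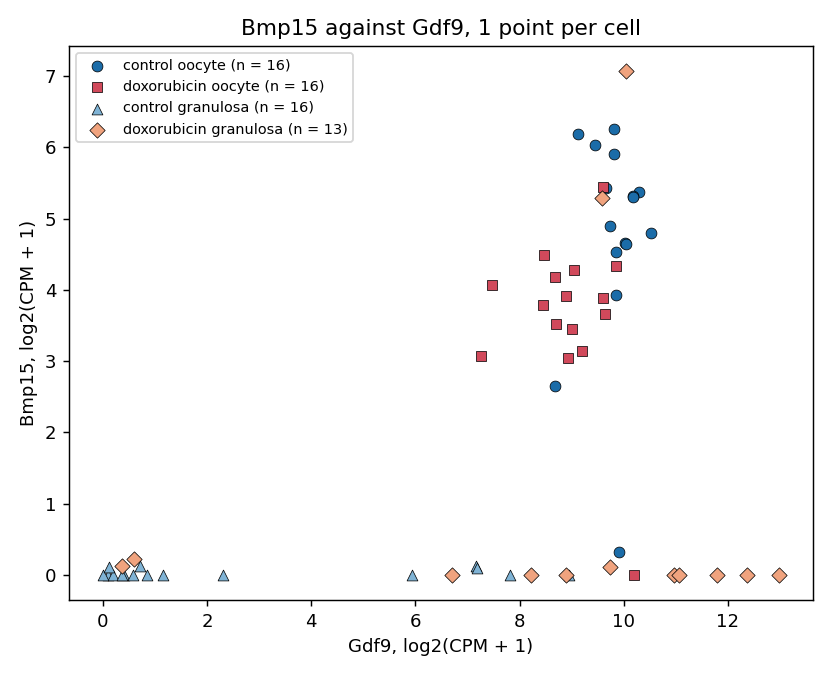
Bmp15 against Gdf9 in each cell, both as log2(CPM + 1), with 1 point per cell. Control oocyte 10 and doxorubicin oocyte 4 lie near the baseline for Bmp15 at full Gdf9 levels. Doxorubicin granulosa library 2 lies among the oocytes, and library 10 lies above all of them for Bmp15.

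Genes whose level followed each member most closely over the 16 control oocytes were read among genes with at least 50 CPM there. For Gdf9 they were Zfp473 (r 0.83), 4930562C15Rik (0.83), the ubiquitin ligase gene Siah2 (0.82), Gtpbp1 (0.77) and Mef2b (0.77), among 4583 genes. In doxorubicin oocytes the r of these genes with Gdf9 was 0.05, 0.34, 0.31, 0.39 and 0.14 in the same order. For Bmp15, among 4584 genes, they included the vesicle coat gene Sec24b (0.89), Uaca (0.88), the replication gene Cdc45 (0.87) and Angptl2 (0.87). Their r with Bmp15 in doxorubicin oocytes was -0.04, 0.56, 0.25 and -0.45. The likeness rested in part on the outer cells, since r was between 0.41 and 0.66 for the Gdf9 genes and between 0.08 and 0.57 for the Bmp15 genes named without the 2 cells farthest from the member's median. Of the genes named, Uaca had the highest r with its member after doxorubicin.

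Granulosa cells are the receivers of these signals. In control granulosa libraries Gdf9 was low in most and clear in a few. The lowest held 0 reads, in library 10, the median was 0.716 CPM and the highest was 494 CPM, in library 13. Libraries 15, 7, 4 and 8 followed with 224, 144, 142 and 59.99 CPM, and the other 11 held at most 3.97 CPM. At least 5 Gdf9 reads were found in 10 of 16 libraries, 62.5% with an exact binomial interval of 35.4% to 84.8% that takes libraries as independent draws, and in 8 of 16 after each library was thinned to 6000000 counts. The group level was 68.1 CPM (66.9 to 69.3), and library 13 supplied 49.6% of its Gdf9 counts.

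Bmp15 was close to absent from control granulosa libraries. It had 4 reads over all 16, at most 1 in a library, and no library reached 5 reads, which allows a share of up to 20.6%. Its group level was 0.0222 CPM (0.00606 to 0.0569). In CPM every control oocyte lay above every control granulosa library for Bmp15, which held for 3.25% of 12373 genes. For control oocyte 10 this rests on 2 reads against at most 1, which counting error does not separate, and the other 15 control oocytes had at least 5.31 CPM. The log2 ratio of control oocytes over control granulosa libraries was 10.69 (9.33 to 12.56), and 10.57 to 11.01 with each cell left out. For Gdf9, 15 of 16 control oocytes lay above the highest granulosa library and cell 3 did not. The Gdf9 log2 ratio was 3.82 (3.80 to 3.85), ranging to 4.71 without granulosa library 13.

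In doxorubicin granulosa libraries Gdf9 reached levels above those of any oocyte. The values were 8052 CPM in library 1, 5271 CPM in library 6 and 3554 CPM in library 4, then 2148 CPM in library 12 and 1985 CPM in library 7. These 5 of 13 libraries exceeded the highest of all 32 oocytes, and they held 0 Bmp15 reads. Libraries 10, 9, 2, 8 and 14 held 1052, 858, 769, 476 and 299 CPM, within the range of the oocytes. Library 15 held 104 CPM, and libraries 13 and 16 held 0.504 and 0.281 CPM. The group thus spanned from near 0 to far above the oocytes, and 9 of 13 libraries lay above the lowest control oocyte, compared with 1 of 16 control granulosa libraries.

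The Gdf9 group level in doxorubicin granulosa libraries was 1817 CPM (1810.2 to 1824), and 12 of 13 libraries, 92.3% (64.0% to 99.8%), had at least 5 reads, or 11 of 13 after thinning. Relative to control granulosa libraries this was 26.7-fold higher, a log2 ratio of 4.74 (4.71 to 4.77), and 8 of 13 libraries lay above the highest control library. Library 1 supplied 29.8% of the counts. The log2 ratio was 4.33 without doxorubicin library 1 and 5.62 without control library 13. Among 12194 genes, 20.6% were at least 2-fold higher in this comparison and 20.0% at least 2-fold lower, and with each cell left out in turn 10.0% stayed higher and 9.73% lower. A ratio as high as that of Gdf9 was found for 4.98% of genes. Large ratios were therefore common in this comparison, far more so than between the oocyte groups. Per kilobase Gdf9 stood at 1014 CPM in doxorubicin granulosa libraries and ranked 44 of 23355 genes, ahead of its rank of 196 in doxorubicin oocytes at 314 CPM.

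Bmp15 in doxorubicin granulosa libraries rested on 2 libraries. Library 10 held 133 CPM from 1218 reads, above every oocyte, and library 2 held 37.9 CPM from 409 reads. Libraries 9, 13 and 16 held 1, 2 and 1 reads, and the other 8 held 0. At least 5 reads were thus found in 2 of 13 libraries, 15.4% (1.92% to 45.4%), also after thinning. The group level of 11.4 CPM (10.9 to 11.97) gave a log2 ratio over control granulosa libraries of 9.0 (7.64 to 10.88). It was 7.12 without library 10, and 0.55 without both, when 4 reads remained in each group. For each 100 Gdf9 counts, libraries 10 and 2 held 12.7 and 4.93 Bmp15 counts, near the highest and above the median of the control oocytes, whose range was 0.0263 to 12.9 with a median of 3.26. Library 9, with more Gdf9 than library 2, held 0.00982.

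In the order of group levels, Gdf9 ran from doxorubicin granulosa libraries through control oocytes and doxorubicin oocytes to control granulosa libraries. By the medians of cells, control oocytes came before doxorubicin granulosa libraries, whose median was 858 CPM and whose range covered all oocytes. Doxorubicin oocytes lay below doxorubicin granulosa libraries, with a log2 ratio of -1.69 (-1.70 to -1.68), and of -1.28 when granulosa library 1 was left out. It was -0.37 within the granulosa marker limits, and it turned to 1.57 when only libraries with their own markers higher were kept, which leaves 5 granulosa libraries. Such a 2-fold lower level was seen for 28.2% of 12428 genes. For Bmp15 the order was control oocytes, doxorubicin oocytes, doxorubicin granulosa and control granulosa libraries. The second and the third of these stood 0.27 (0.18 to 0.36) apart on the log2 scale, which became 2.16 without granulosa library 10 and 8.73 without libraries 2 and 10. The oocyte and granulosa comparisons share their cells with the treatment comparisons and are not separate evidence.

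Gdf9 in granulosa libraries was set beside markers of each cell type. The oocyte markers summed to 602 to 19539 CPM in control granulosa libraries, with a median of 2137 CPM, and to 554 to 43520.1 CPM after doxorubicin, with a median of 10838 CPM. The granulosa markers summed to 676 to 14958 CPM in control libraries, with a median of 4144 CPM, and to 1045 to 11079.8 CPM after doxorubicin, with a median of 2069 CPM. Stroma markers ranged up to 13451 and 8635 CPM in the same order. Blood and immune markers reached 33378 CPM in doxorubicin library 15, where Gdf9 was 104 CPM. The part of these other cell types in the Gdf9 difference was not tested. Among libraries with at least 5000 CPM of granulosa markers, 8 control and 6 doxorubicin, the Gdf9 log2 ratio was 3.72. The doxorubicin libraries among them were numbers 7, 8, 12, 14, 15 and 16, with Gdf9 from 0.281 to 2148 CPM. Among libraries whose granulosa markers exceeded their oocyte markers, 11 control and 5 doxorubicin, the ratio was 2.11.

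Over the 13 doxorubicin granulosa libraries Gdf9 followed the summed oocyte markers closely, with r 0.92 and rho 0.99, and r was 0.97 without libraries 13 and 16. Over the 16 control granulosa libraries r was 0.45 and rho 0.51, and r was 0.65 without libraries 8 and 14. Control library 14 had 10952 CPM of oocyte markers and 0.293 CPM of Gdf9, while doxorubicin library 9 had 10838 CPM of oocyte markers and 858 CPM of Gdf9. At a like load of oocyte transcripts, these libraries thus differed widely in Gdf9. Per 100 counts of oocyte markers the doxorubicin granulosa libraries held 13.1 Gdf9 counts, with 0.0161 to 18.5 per library and a median of 8.68. Control granulosa libraries held 1.93, with 0 to 9.89 per library and a median of 0.0528, and the median of control oocytes was 1.77. Control libraries 4, 7, 13 and 15 held 4.74, 7.16, 9.89 and 7.11, and the other 12 held at most 0.307. Among doxorubicin libraries only 13 and 16 were that low, at 0.0911 and 0.0161. The points share the library total, and library size does not enter the ratio per marker count.

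**Figure D3:**
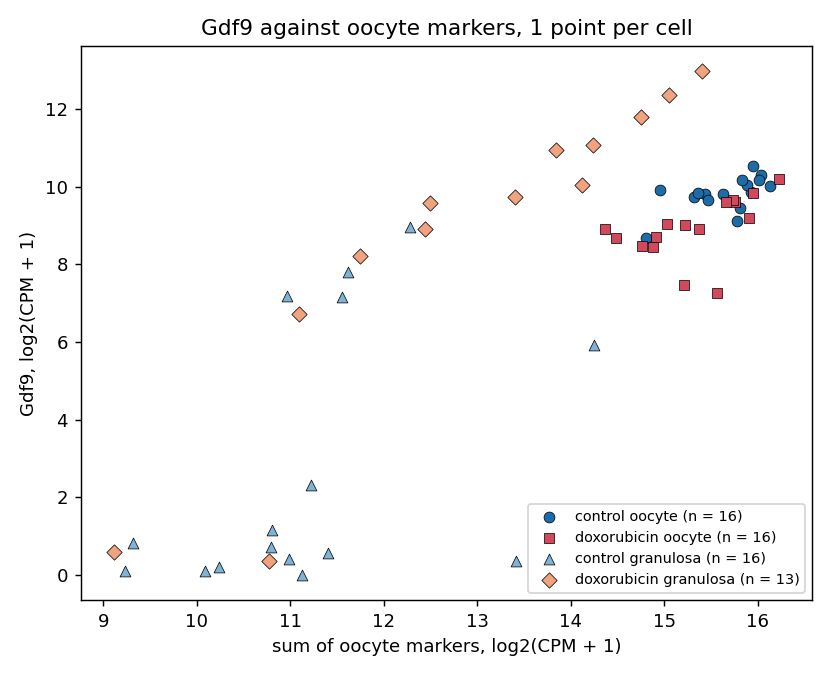
Gdf9 against the sum of 21 oocyte markers, both as log2(CPM + 1), with 1 point per cell. Doxorubicin granulosa libraries with 10838 to 43520.1 CPM of markers lie within or above the oocyte range for Gdf9. Over all cells the highest Gdf9 points are not those with the most markers, while among doxorubicin granulosa libraries they are.

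The oocyte genes did not appear in granulosa libraries in the proportions found in oocytes. Over 32 oocyte genes of the lists used here, the group level in doxorubicin granulosa libraries was expressed as a percentage of that in doxorubicin oocytes. Gdf9 stood at 322%, behind Oosp1, a small oocyte-secreted protein gene, at 778% and Khdc3, of the subcortical maternal complex, at 380%. Zar1, a regulator of stored maternal RNA, stood at 276%, and Bmp15 at 82.8%, on the strength of 2 libraries. The zona pellucida genes Zp3, Zp1 and Zp2 stood at 52.0%, 37.2% and 13.2%. The stem cell factor receptor gene Kit stood at 5.09%, and the germ cell helicase gene Ddx4 and the transcription factor gene Lhx8 at 0.245% and 0.365%.

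Ddx4 is a defining germ cell marker and was at or near 0 where Gdf9 was highest. It ranged from 112 to 497 CPM in control oocytes and from 177 to 448 CPM in doxorubicin oocytes. In doxorubicin granulosa libraries it did not exceed 3.03 CPM, and it was 0.727 CPM in library 1 and 0 in library 6. Lhx8 did not exceed 3.42 CPM in these libraries and was at least 95.3 CPM in each oocyte. Per Ddx4 count, control oocytes held 3.59 Gdf9 counts and doxorubicin oocytes 2.08. Control granulosa libraries held 35.3, or 385 without library 8, which supplied 317 of their 347 Ddx4 counts. Doxorubicin granulosa libraries held 2736, or 4612 without library 8, which supplied 40 of their 95 Ddx4 counts.

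**Figure D4:**
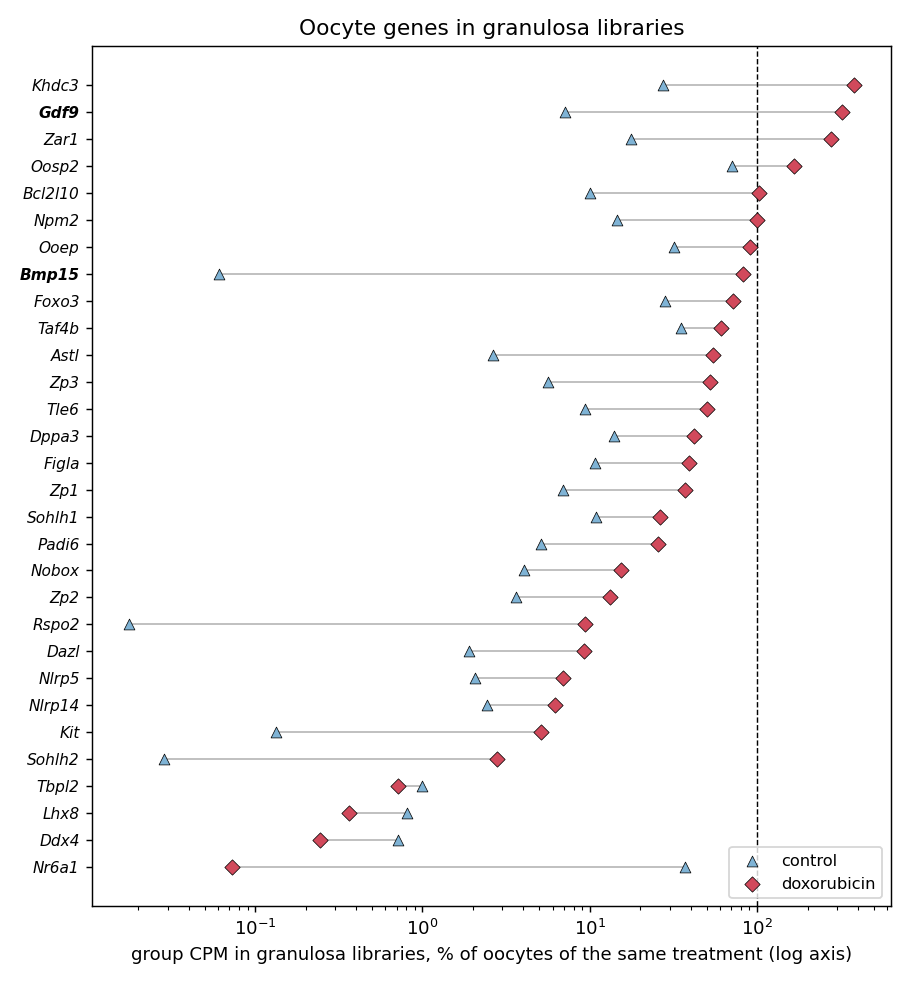
Group level of oocyte genes in granulosa libraries as a percentage of their level in oocytes of the same treatment, on a log axis, for genes with at least 5 CPM in control oocytes. The dashed line marks 100%, Gdf9 lies past it after doxorubicin at 322%, and Ddx4 and Lhx8 lie under 1% in both treatments.

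Over all 29 granulosa libraries the genes most like Gdf9, among 5661 with at least 50 CPM in either group, were Smagp (r 0.87), Tsga10ip (0.85), Gm37110 (0.84), the neuronal and germ cell ubiquitin hydrolase gene Uchl1 (0.83) and Gm37724 (0.82). Within the 16 control libraries their r with Gdf9 was 0.68, 0.75, 0.51, 0.62 and 0.37, and within the 13 doxorubicin libraries 0.94, 0.74, 0.92, 0.95 and 0.91. These genes were picked over the same libraries, so their r within each treatment is not separate support. For all but Tsga10ip it was higher within doxorubicin libraries. Their ranks by r within control libraries ran from 1 for Tsga10ip to 374 for Gm37724. For Bmp15 the highest was Epb41l3 at 0.66, which was 0.05 without libraries 10 and 2, so that no gene is described as alike.

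The other genes of the pathway were counted in oocytes by role, beside the 6.30% of genes higher and 2.45% lower by 2-fold. Of 5 measured other ligands of the family, Bmp7 and Inha were at least 2-fold higher after doxorubicin and Tgfb3 was lower. Tgfb3 had at least 5 reads in 11 of 16 control and 3 of 16 doxorubicin oocytes. Its group level was 13.7 and 1.57 CPM, a log2 ratio of -3.13 that stayed between -4.23 and -2.89 with each cell left out. Bmp7 stood at 12.1 and 30.7 CPM, a log2 ratio of 1.34. Inha, the inhibin subunit gene and a granulosa marker, stood at 97.7 and 354 CPM, but the log2 ratio among oocytes with granulosa markers under 200 CPM was -0.55. Of 3 measured other oocyte-secreted genes, Rspo2, which encodes an enhancer of WNT signalling, was 2-fold lower at 63.5 and 30.9 CPM. Its log2 ratio of -1.04 was -0.89 without control oocyte 16, while Astl, the ovastacin gene, stood at 552 and 468 CPM.

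Genes that act on the precursors and in the signal pathway were past 2-fold about as often as all genes. Of 5 convertase genes, only Pcsk5 was past 2-fold, at 2.91 and 8.697 CPM, and its log2 ratio of 1.58 was 0.26 without doxorubicin oocyte 9. Furin stood at 42.0 and 32.0 CPM, and Pcsk6, with the highest level of its list, at 72.9 and 67.7 CPM. Of 8 receptor genes, Tgfbr1 was higher at 16.7 and 42.2 CPM, a log2 ratio of 1.34, falling short of 2-fold at 0.79 without doxorubicin oocyte 4. Bmpr2 stood at 7.09 and 9.66 CPM, and Bmpr1b at 44.9 and 39.4 CPM. Of 5 SMAD genes, 0 were past 2-fold, and the shared partner Smad4 stood at 136 and 115 CPM. For these receptor genes and for Smad4 the cells of both treatments overlapped. The median log2 ratio was 0.32 for receptors and 0.03 for SMADs, beside 0.01 over all genes.

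Among 3 measured antagonists, Fst, which encodes the activin binder follistatin, was higher at 4.29 and 26.2 CPM, and Nbl1 lower at 6.22 and 1.00 CPM. Each reached 5 CPM in only 1 oocyte group, so Fst could only count as higher and Nbl1 only as lower. Among 7 measured genes known as granulosa targets of GDF9 and BMP15 signals, Fst, Id2 and Ldha were past 2-fold higher. Fst is in both lists. Over all genes 6.30% were past 2-fold higher and 2.45% lower. Id2, an inhibitor of DNA binding, stood at 13.9 and 62.1 CPM and had at least 5 reads in all oocytes, with a log2 ratio of 2.16, or 1.71 in the oocytes poor in granulosa markers. Ldha, the lactate dehydrogenase gene, stood at 32.0 and 64.5 CPM, but at -0.01 on the log2 scale among those oocytes. For Fst the log2 ratio was 2.61 over all oocytes and 2.39 in those poor in granulosa markers. The 8 measured granulosa markers themselves had a median log2 ratio of 2.14 between all oocytes and 0.78 in those cells.

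Transcription factor genes that act upstream of the 2 members in oocytes differed less than the members. Of 9 regulator genes 0 were past 2-fold, beside 6.30% of all genes higher and 2.45% lower, and their median log2 ratio was -0.03. Nobox, whose protein binds the Gdf9 promoter and whose element is marked in the Bmp15 sequence, ranged from 1206 to 3129 CPM in control and from 1100.3 to 2404 CPM in doxorubicin oocytes. Its group level was 2206 and 1624 CPM, a log2 ratio of -0.44. Figla stood at 457 and 487 CPM and Sohlh1 at 711 and 734 CPM, log2 ratios of 0.09 and 0.05. Nr6a1, which encodes a repressor of both members, stood at 7.98 and 9.56 CPM. Tbpl2, a germ cell form of a general transcription factor, stood at 82.4 and 58.6 CPM, a log2 ratio of -0.49. Cell by cell, r of Nobox with Gdf9 was -0.17 in control and -0.15 in doxorubicin oocytes, and with Bmp15 it was 0.33 and -0.01, over 16 cells each.

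**Figure D5:**
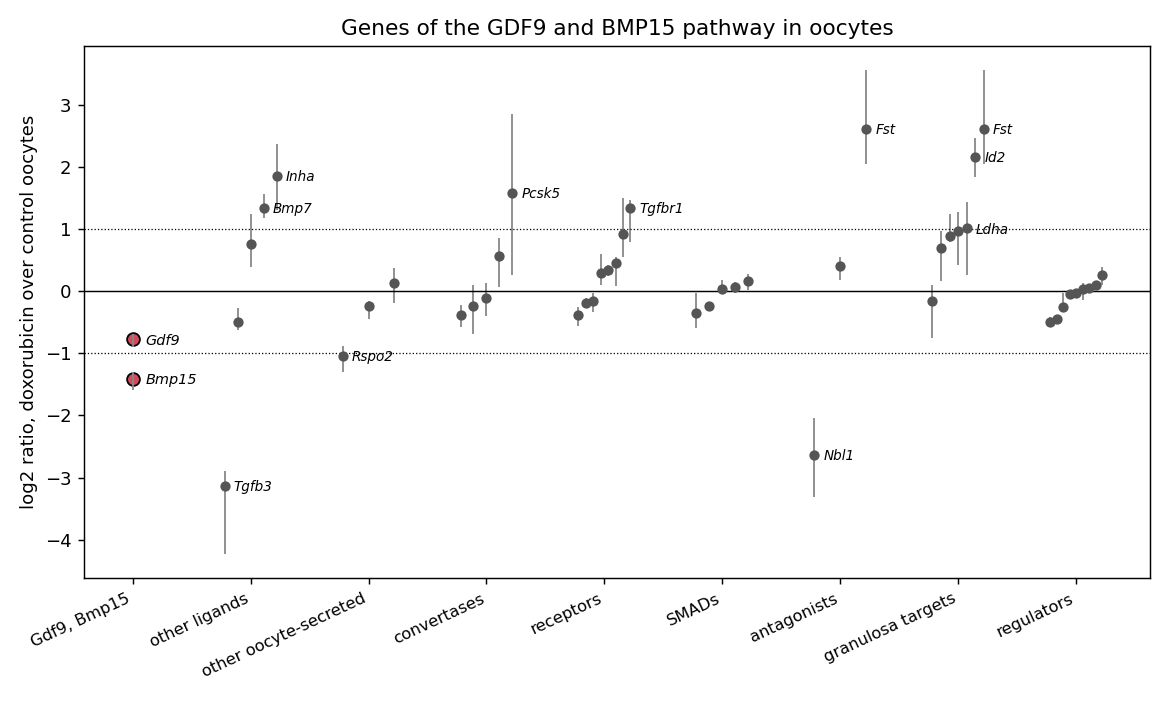
Log2 ratio of group CPM, doxorubicin over control oocytes, for both members and for the genes of each pathway list with at least 5 CPM in either group. Bars span the values with each cell left out in turn, dotted lines mark 2-fold, and genes past 2-fold are named, with regulators lying between -0.49 and 0.26 and Bmp15 at -1.41.

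In granulosa libraries the receiving pathway was uneven from library to library, beside 20.6% of genes higher and 20.0% lower by 2-fold. Bmpr2 stood at 54.6 CPM in control and 37.1 CPM in doxorubicin libraries, with medians of 49.8 and 17.6 CPM over libraries. Bmpr1b stood at 45.3 and 29.7 CPM and Tgfbr1 at 20.95 and 41.9 CPM. Of 10 measured receptor genes, 4 were past 2-fold higher (Tgfbr1, Bmpr1a, Acvr1 and Acvr2a) and 1 lower (Acvr1b), of which 1 on each side, Acvr1 and Acvr1b, stayed so with each cell left out. Acvr1b had at least 5 reads in 3 of 16 control and 0 of 13 doxorubicin libraries. Of 5 SMAD genes, Smad1 was higher at 10.6 and 27.7 CPM and Smad3 lower at 81.3 and 31.6 CPM, while Smad2 stood at 32.5 and 43.1 CPM and Smad5 at 66.7 and 42.7 CPM. The median log2 ratio was 0.03 for receptors and 0.41 for SMADs. Furin stood at 14.9 and 13.1 CPM and Pcsk6 at 516 and 659.8 CPM.

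Of 13 measured target genes in granulosa libraries, 1 was past 2-fold higher (Pfkp) and 6 were lower, among them Has2, Tnfaip6, Fst, Cyp19a1 and Fshr, with a median log2 ratio of -0.71. Fst stood at 283 and 109 CPM, a log2 ratio of -1.38 that stayed between -1.92 and -1.08. Fshr, the receptor gene for follicle-stimulating hormone, stood at 42.7 and 3.82 CPM, with at least 5 reads in 6 of 16 and 3 of 13 libraries. Cyp19a1, the aromatase gene, stood at 27.0 CPM with 4 of 16 libraries and at 1 read in all after doxorubicin. Has2, the hyaluronan synthase gene, was found in 1 control library alone and had 0 reads after doxorubicin. Kitl, the ligand gene for KIT, stood at 133 and 81.5 CPM, and Id1 and Id3 at 105 and 87.5 CPM and at 282 and 251 CPM. The targets had a median log2 ratio of -0.54 in the libraries richest in granulosa markers, those past 5000 CPM. Of the antagonists other than Fst, Chrd and Bmper were past 2-fold higher, and Chrd had 0 reads in all control libraries and at least 5 in 3 of 13 doxorubicin libraries.

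Genes of the oocyte's own program stood with Gdf9 in the granulosa comparison. Among the 12194 genes measured there, 20.6% were past 2-fold higher and 20.0% lower. With each cell left out, 10.0% and 9.73% stayed so. All 3 measured other oocyte-secreted genes, Oosp1, Oosp2 and Astl, were past 2-fold higher after doxorubicin, with Astl at 14.6 and 253 CPM. Of 6 measured regulators, Nobox, Figla, Sohlh1, Sohlh2 and Foxo3 were past 2-fold higher, with Nobox at 89.8 and 250.3 CPM and Figla at 49.2 and 191 CPM, and 3 of the 5 stayed past 2-fold with each cell left out. Of the 21 oocyte markers, 19 reached 5 CPM and all 19 of these were past 2-fold higher, 16 of them with each cell left out. The markers Oosp1, Kit and Bcl2l10 reached 5 CPM only through the doxorubicin libraries, and Oosp1 is also among the secreted genes. The same held for the regulator Sohlh2, at 0.0667 and 6.35 CPM. With this filter these genes could only count as higher. The markers Ddx4 (1.93 and 0.664 CPM) and Lhx8 (1.82 and 0.797 CPM) stayed under 5 CPM in both groups, with lower group levels after doxorubicin. Most control Ddx4 counts came from library 8, at 27.96 CPM, and most control Lhx8 counts from library 15, at 26.5 CPM. At least 5 reads were found in 3 of 16 control and 4 of 13 doxorubicin libraries for Ddx4. For Lhx8 it was 2 of 16 and 5 of 13. The 3 regulators under 5 CPM had lower group levels after doxorubicin. They were Lhx8, Tbpl2 (0.817 and 0.419 CPM) and Nr6a1, which stood at 2.95 CPM in control libraries, from 1 library with at least 5 reads, and at 0.00699 CPM after doxorubicin. Of 11 measured other ligands, Bmp4 and Tgfb3 were past 2-fold higher and Bmp3, Bmp7 and Gdf10 lower, about as often as all genes. Only Tgfb3 stayed so with each cell left out. Fewer oocyte transcripts per library and fewer libraries that hold them cannot be told apart in group levels, which is why the values of single libraries are given.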

How the data were processed

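Full-length RNA libraries of single cells were sequenced. The values deposited by the authors are estimated counts, 1 table for all cells, of which 32.3% of nonzero values are not whole (tolerance 1e-06). The submitters' processing notes name mm10, Partek, Bowtie2, HISAT2 and DESeq2, with no role. The counting tool and annotation are not given in the sources used here. Date-like symbols stood in 22 rows with 0.144% of counts and stayed in the totals. All cell columns were used.

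Estimated counts were rounded, summed per group and divided by the summed totals to give CPM. Groups were compared by the log2 ratio of CPM, with a group under 3 counts set to 3 counts, and exact conditional binomial intervals (95%). CPM has exact Poisson intervals and shares of cells exact Clopper-Pearson intervals. With 1 sample a group no test was made. "Past 2-fold" is an absolute log2 ratio of at least 1, among genes that reach 5 CPM in 1 of the groups compared, and "measured" means past that filter. Correlations used log2(CPM + 1). The calculation was tested on simulated data.

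The members, the lists and the naming rule were chosen with earlier results of these data known. Named genes are both members, list genes that were past 2-fold, highest in their list or known partners of the members, and the 5 genes with the highest r per member and cell type. Some genes that the rule names are not reported here. The 32 oocyte genes are the oocyte markers, the other oocyte-secreted genes, the regulators and the members, each with a row and counted once. H1foo, a listed oocyte marker, has no row. Gene models came from GENCODE M21 on GRCm38, the assembly that mm10 names. Promoter sequence came from RefSeq. Alternatives changed how cells are combined, the scaling (edgeR 4.0.16 TMM, DESeq2 1.42.0 size factors, in R 4.3.3), rounding, the filter and the cells kept. Scripts ran in Python 3.11.15 (scipy 1.17.1, pandas 2.3.3, numpy 2.4.6), and plots in matplotlib 3.10.9.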

Additional observations from a re-analysis of the deposited data

Results flagged for a closer look

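Both genes differed between treatments in opposite directions in the 2 cell types. For Gdf9 the log2 ratio of doxorubicin over control was -0.77 in oocytes and 4.74 in granulosa libraries. For Bmp15 it was -1.41 in oocytes and 9.0 in granulosa libraries, the latter from doxorubicin libraries 2 and 10. With 1 sample a group the difference between cell types was not tested. In each of the 4 comparisons the direction was kept when any 1 cell was left out.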

How the results depend on the processing

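No paired analysis was possible because no result comes from a test and cells of different groups share only a number. Over 88 values from alternatives other than leaving out 1 cell, 43 stayed within their counting interval or within 1.5 times the count, 44 moved and 1 reversed. The equal-weight mean of cells gave, for doxorubicin over control oocytes, -0.76 for Gdf9 and -1.33 for Bmp15, for Gdf9 in granulosa libraries 4.82, and for doxorubicin oocytes over granulosa libraries -1.77 for Gdf9 and 0.12 for Bmp15. Medians of cells gave -0.88 and -1.26 in oocytes, 8.97 and 0.00 in granulosa libraries, 9.07 and 5.10 for control oocytes over granulosa libraries, and -0.78 and 3.84 for the doxorubicin groups, Gdf9 first. For Gdf9, TMM and DESeq2 factors gave 4.77 and 4.78 in granulosa libraries and 3.87 and 3.91 for control oocytes over granulosa libraries, and DESeq2 factors gave -1.64 for the doxorubicin groups. With libraries whose own markers were higher, Gdf9 gave 2.11 in granulosa libraries, 4.45 for control oocytes over granulosa libraries and 1.57, a reversal of -1.69, for the doxorubicin groups, where the 5 doxorubicin granulosa libraries kept exclude those with the most oocyte transcripts by construction. Bmp15 gave 8.05 for the doxorubicin groups, from 3 reads in the granulosa group. Within the granulosa marker limits the Gdf9 values were -0.68, 3.72, 4.02 and -0.37 in the same order of comparisons as for the medians, and Bmp15 gave 8.22 for the doxorubicin groups. In both sets Bmp15 had at most 3 reads in each granulosa group, so no ratio between them is given, and 8.22 is set against the floor of 3 counts. Chosen after seeing the data, removal of doxorubicin granulosa libraries 2 and 10 gave 4.85 and 0.55 against control libraries and -1.80 and 8.73 for doxorubicin oocytes over them, Gdf9 first, and removal of control oocyte 10 and doxorubicin oocytes 4, 9, 11 and 12 gave -0.84 for Gdf9. Where these values moved, the cause was not tested beyond which cells were kept.

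Counts of genes past 2-fold depended on the filter. Between oocyte groups 973 genes became 2501 at 1 CPM, 115 at 50 CPM and 7764 with no filter. Between granulosa groups 4951 became 1548 at 50 CPM and 10076 with no filter, between control cell types 7458 became 3448 and 15260, and between doxorubicin cell types 6939 became 2984 and 14503. Leaving out each cell gave 923 to 1051, 4792 to 5279, 7391 to 7520 and 6871 to 7075 genes. For the members it gave, Gdf9 first, -0.90 to -0.69 and -1.59 to -1.30 in oocytes, 4.33 to 5.62 and 7.12 to 9.33 in granulosa libraries, 3.71 to 4.71 and 10.57 to 11.01 for control oocytes over granulosa libraries, and -1.82 to -1.28 and 0.0944 to 2.16 for the doxorubicin groups. The ratio of Gdf9 to Bmp15 per kilobase ranged from 5.41 to 5.60 in control and 5.89 to 6.27 in doxorubicin oocytes, and was 4.55 and 5.19 by coding length and 5.71 and 5.96 by the median of cells. Thinning left the number of granulosa libraries with at least 5 Bmp15 reads at 0 of 16 and 2 of 13, and below that level depth does not separate 1 or 2 reads from 0.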
